A study of Mus musculus with 4 samples.

Results

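The 36 genes described here encode proteins of the intercalated disc, the contact by which heart muscle cells are joined end to end, and of the focal adhesion, the contact by which they hold on to the matrix. They were taken by name, as every probe set whose single gene symbol in the annotation of the array is 1 of the 36, which gave 99 of the 45037 probe sets tested and 36 of the 18193 genes that have a probe set of their own. Gene expression was compared between 2 Jun delta mu and 2 Junf/f hearts of mice 10 weeks old, with 1 Affymetrix array per heart. Jun delta mu mice carry floxed alleles of *Jun*, the gene of the AP-1 transcription factor c-Jun, together with a Cre transgene under the muscle creatine kinase promoter, which acts in striated muscle, so that the other cells of the heart keep the gene. Junf/f mice carry the same floxed alleles without Cre. All mice had a mixed 129/Ola-C57BL/6 background, the hearts were not put under pressure overload, and the sex of the animals was not given in the sources used here. The growth notes of the samples describe plated cells of digested ventricles, whereas titles, source and methods name hearts, and this conflict was not resolved.

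In the disc, N-cadherin of the adherens junction holds neighbouring cells together and is tied through catenins and vinculin to actin, so that force passes between sarcomeres of both cells. Desmosomes do the same for the desmin filaments through desmosomal cadherins, plakoglobin, plakophilin and desmoplakin, and connexins form the gap junctions that carry the current. At focal adhesions, integrins are coupled to actin through talin, kindlin and the complex of integrin-linked kinase, PINCH and parvin, with adaptors such as paxillin, zyxin and migfilin around them. Inherited mutations of several of the desmosomal genes are a known cause of arrhythmogenic cardiomyopathy.

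In Jun delta mu hearts the signal of *Nrap*, a nebulin-related protein that anchors terminal actin filaments at the disc, was 76.2% of that in Junf/f hearts. One of the 2 probe sets of *Fblim1*, which encodes migfilin, an adaptor between filamin, kindlin and zyxin, stood at 69.6% of the Junf/f signal. These were the only probe sets of the 99 past the threshold used here, more than 1.3-fold and p under 0.05 before adjustment in a limma fit. The study set the same limits with another test, and also admitted selected genes through quantitative RT-PCR. By the methods' t-test *Nrap* passed and *Fblim1* was short of the threshold (unadjusted p = 0.167). By the limma fit none of the 99 was higher past the threshold, and the other 97 did not pass. N-cadherin, the catenins, the desmosomal proteins, the connexins, the integrin-linked kinase complex and the talins had no probe set past the threshold.

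AP-1 binds DNA at a short palindromic element, and the sequence before the start of a gene was therefore searched for it. The stretches of 250 bases before the RefSeq start of *Fblim1* and *Nrap*, where the differences past the threshold lay, and of *Gja1*, the gene with the most probe sets among 5 whose probe sets, 3 or more each, all pointed one way, are given here on the strand of the gene (GRCm38, chr4:141606053-141606302, minus strand, chr19:56390039-56390288, minus strand, and chr10:56377050-56377299, plus strand). Capitals mark matches to TGANTCA.
Fblim1: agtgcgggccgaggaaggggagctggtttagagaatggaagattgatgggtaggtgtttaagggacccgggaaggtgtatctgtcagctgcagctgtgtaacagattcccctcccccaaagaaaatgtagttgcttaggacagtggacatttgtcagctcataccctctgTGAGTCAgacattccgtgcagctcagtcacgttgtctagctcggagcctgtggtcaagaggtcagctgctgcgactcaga
Nrap: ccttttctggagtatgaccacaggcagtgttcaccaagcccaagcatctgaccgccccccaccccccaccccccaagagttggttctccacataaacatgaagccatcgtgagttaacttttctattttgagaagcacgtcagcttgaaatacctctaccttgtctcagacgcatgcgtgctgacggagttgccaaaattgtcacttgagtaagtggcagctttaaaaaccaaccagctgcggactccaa
Gja1: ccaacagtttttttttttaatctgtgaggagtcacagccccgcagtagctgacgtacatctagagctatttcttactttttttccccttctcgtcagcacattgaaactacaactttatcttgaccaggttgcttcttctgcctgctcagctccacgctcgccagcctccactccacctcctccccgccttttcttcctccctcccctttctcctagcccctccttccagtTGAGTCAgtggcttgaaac

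The TGAGTCA of *Fblim1* ends 73 bases before the start and that of *Gja1* 12 bases before it. The window of *Nrap*, whose last bases lie inside the gene as annotated, holds no match to these letters. Promoter windows (250 bases before to 50 after a start) were in the table for 24 of the 36 genes, with 36 windows in all, and TGANTCA, which is its own reverse complement, was in 4 of them (11.1%), against 7.81% of all 32851 windows. The other matches were a TGAGTCA in *Zyx*, 114 bases before a start that lies inside the gene as annotated, and a TGACTCA in *Lmna* after a start that is likewise inside the gene. TGACGTCA, likewise searched on both strands, was in 0 of the 36 windows and in 1.79% of all.

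Both probe sets of *Jun* itself were lower on each Jun delta mu array than on each Junf/f array. The log2 signal of 1448694_at was 6.58 and 6.86 in Jun delta mu hearts and 7.78 and 8.15 in Junf/f hearts, a difference of -1.24, and 1417409_at differed by -1.57. Median signals of the 4 arrays lay between 5.45 and 5.47. Junf/f replicate 1 stood apart, since 104 of its probe sets were over 2-fold away from the other 3 arrays averaged, while the others had 24 to 33 such probe sets each. Jun delta mu replicate 2 stood apart in atrial genes. *Myl7*, the atrial myosin light chain, had a log2 signal of 5.02 and 9.11 in Jun delta mu hearts and 4.88 and 5.51 in Junf/f hearts. The 4 atrial markers summed to 5315 and 8416 in Jun delta mu hearts and 3866 and 5545 in Junf/f hearts on the linear scale. Most of each sum is *Nppa*, at a log2 signal of 12.34 and 12.79 in Jun delta mu hearts and 11.88 and 12.40 in Junf/f hearts, so that the sum is no measure of atrial tissue alone. Of the 10 heart muscle markers 0 passed the threshold, with differences of -0.11 to 0.14 and sums of 214027 and 216191 in Jun delta mu hearts against 219075 and 217161 in Junf/f hearts. Smooth muscle markers differed by -0.67 to -0.02 with 1 of 6 past the threshold, lower, and sums of 12364 and 13270 in Jun delta mu hearts and 13621 and 13325 in Junf/f hearts. Endothelial markers differed by -0.24 to 0.00 with 0 of 7 past it. Of 8 fibroblast markers *Pi16* was higher past it, at 0.45, with a range of -0.09 to 0.45 for the list, and of 2 measured blood markers *Alas2* was lower past it, at -0.49. None of the other 7 marker lists had a member past it. In whole hearts, fewer cells of a type and less RNA per cell cannot be told apart.

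Over the 36 genes, each by its brightest probe set, 1 was lower past the threshold, or 2.78%, where 0.786% of all 18193 genes were. None was higher past it, where 0.665% of all genes were. By probe sets the share lower past it was 2.02% (2 of 99), where 0.959% of all were, and 0 of 99 were higher, where 0.568% of all were. The shares of the members thus rest on 1 gene and on 2 probe sets. Of the 36 differences, 19 were below 0 and 17 above, with a median of -0.00 on the log2 scale beside 0.01 for all genes and a range of -0.39 to 0.26. The median size of the difference between genotypes was 0.07, beside 0.08 for all genes. Both Jun delta mu arrays themselves lay 0.07 apart for the median member and both Junf/f arrays 0.12. These are gaps between single arrays, whereas the difference between genotypes compares means of 2 arrays, which vary less. The sizes are therefore not directly comparable and do not exclude a modest shift. The smallest adjusted p among the members was 0.896 (limma, Benjamini-Hochberg adjustment over all 45037 probe sets), and no probe set of the whole array reached an adjusted p under 0.05, although 2326 had an unadjusted p under 0.05. Of the members, 3 probe sets did. An exact permutation test on 2 hearts against 2 cannot go below a two-sided p of 0.333.

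The 95% interval of the difference lay wholly inside 1.3-fold either way for 24 of the 36 genes and reached it for the other 12. It reached 0.21 to 0.47 to either side of the difference. At this precision a change of 1.3-fold was outside the interval for most members. The precision is that of limma, which draws the variance of each probe set toward that of all probe sets. Intervals from the 2 residual degrees of freedom of each probe set alone would differ and were not computed. Changes smaller than the reach of a gene's own interval could not be told from 0.

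**Figure D1:**
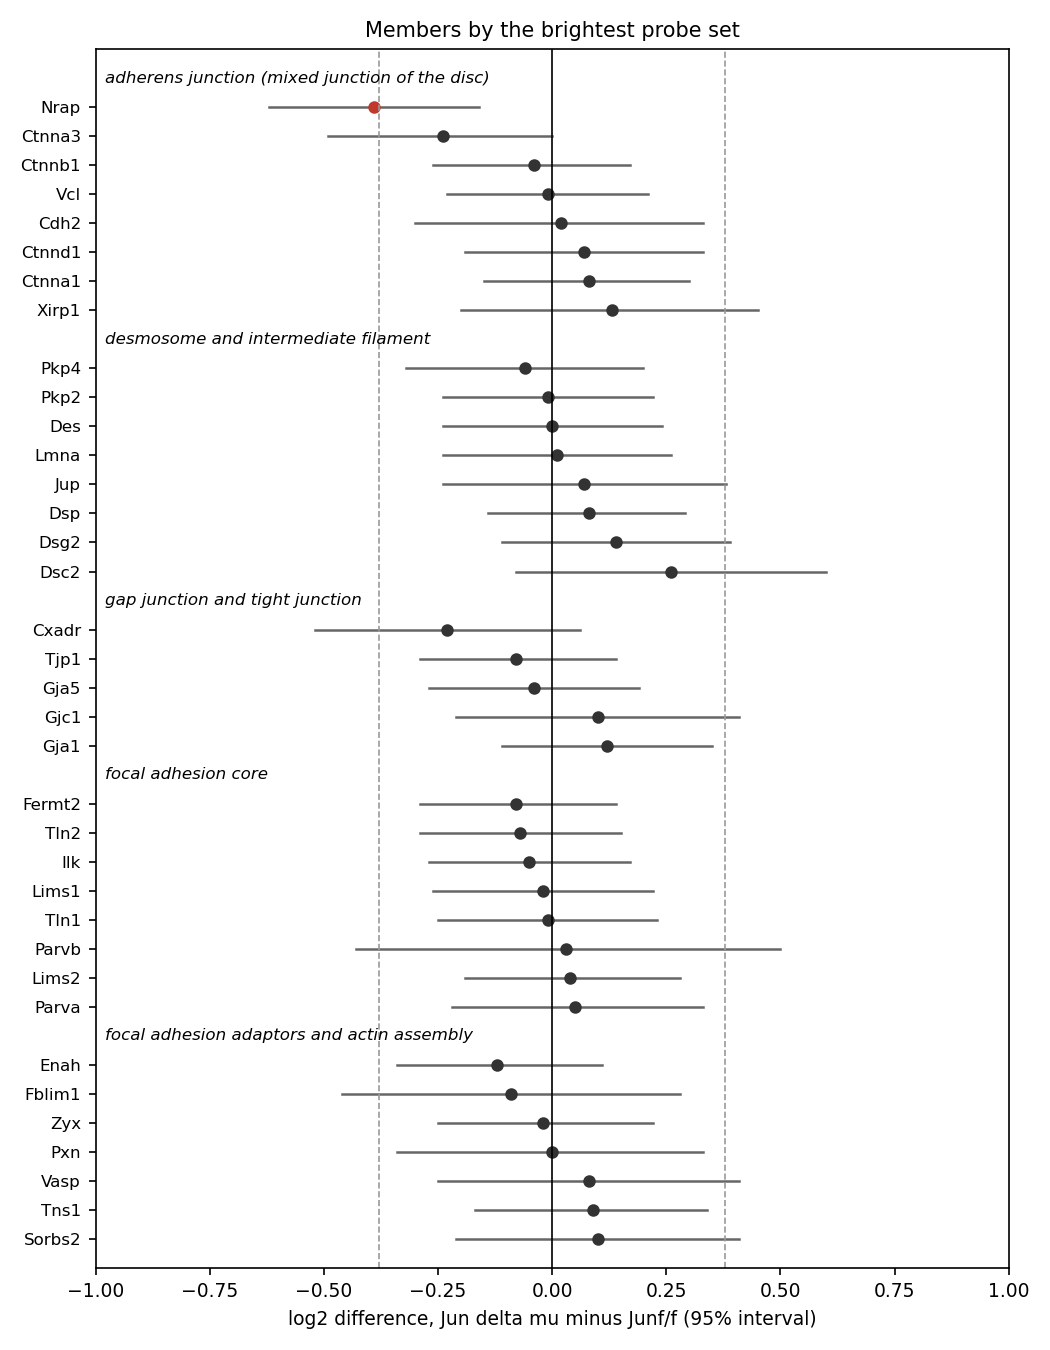
Difference in log2 signal, Jun delta mu minus Junf/f, for the brightest probe set of each of the 36 genes, by structure. Points are the fitted difference and bars its 95% interval (limma, 2 hearts per genotype), dashed lines mark 1.3-fold either way, and Nrap, drawn in red at -0.39, is the 1 gene past the threshold.

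In the adherens junction and the zone around it, 1 of 8 genes and 1 of 18 probe sets were lower past the threshold and none was higher. *Nrap* has 1 probe set, 1421253_at, and lies on chromosome 19 from 56320037 to 56390062 (GRCm38). Its log2 signal was 11.17 and 11.25 in Jun delta mu hearts and 11.63 and 11.57 in Junf/f hearts. The genotypes did not overlap, and the gap between them was several times that between hearts of 1 genotype. The difference was -0.39 (standard error 0.09, 95% interval -0.62 to -0.16, limma, unadjusted p = 0.0063, adjusted p = 0.896). It lies just beyond 1.3-fold, and without Jun delta mu replicate 1, at -0.35, or without Junf/f replicate 1, at -0.36, it did not pass. Without Jun delta mu replicate 2, the heart with the high atrial genes, it was -0.43 and past the threshold. *Nrap* and *Fblim1* are also among the genes that the study listed from these same arrays, so that their direction here is not independent evidence.

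Second by size in this group was *Ctnna3*, which encodes αT-catenin, the catenin that also binds plakophilin in the mixed junction of the disc. Its probe set 1441560_at had a log2 signal of 7.01 and 6.85 in Jun delta mu hearts and 7.18 and 7.17 in Junf/f hearts, with both Jun delta mu arrays the lower. The difference of -0.24 had a 95% interval of -0.49 to 0.00 and did not pass. It was -0.33 to -0.16 with 1 array left out. The other probe set of *Ctnna3* differed by 0.09 with overlapping groups. *Xirp1*, whose product Xin binds actin and β-catenin at the disc, had 9.79 and 9.98 in Jun delta mu hearts and 9.63 and 9.89 in Junf/f hearts. Its groups overlapped, and the difference was 0.13 (95% interval -0.20 to 0.45), or 0.00 to 0.25 with 1 array left out.

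The core of the junction lay closer together. *Cdh2*, N-cadherin, differed by 0.02, *Ctnna1*, αE-catenin, by 0.08, *Ctnnd1*, p120-catenin, by 0.07 and *Vcl*, vinculin, by -0.01. *Ctnnb1*, β-catenin, was at -0.04 with an interval of -0.26 to 0.17, and all 3 of its probe sets were below 0. A dim probe set of *Ctnna1*, 1436631_at, passed the threshold when Junf/f replicate 2 was left out, at -0.55, beside -0.27 over all hearts and 0.00 without Junf/f replicate 1, and a second probe set of *Vcl*, 1416157_at, was at -0.21 with both Jun delta mu arrays the lower.

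**Figure D2:**
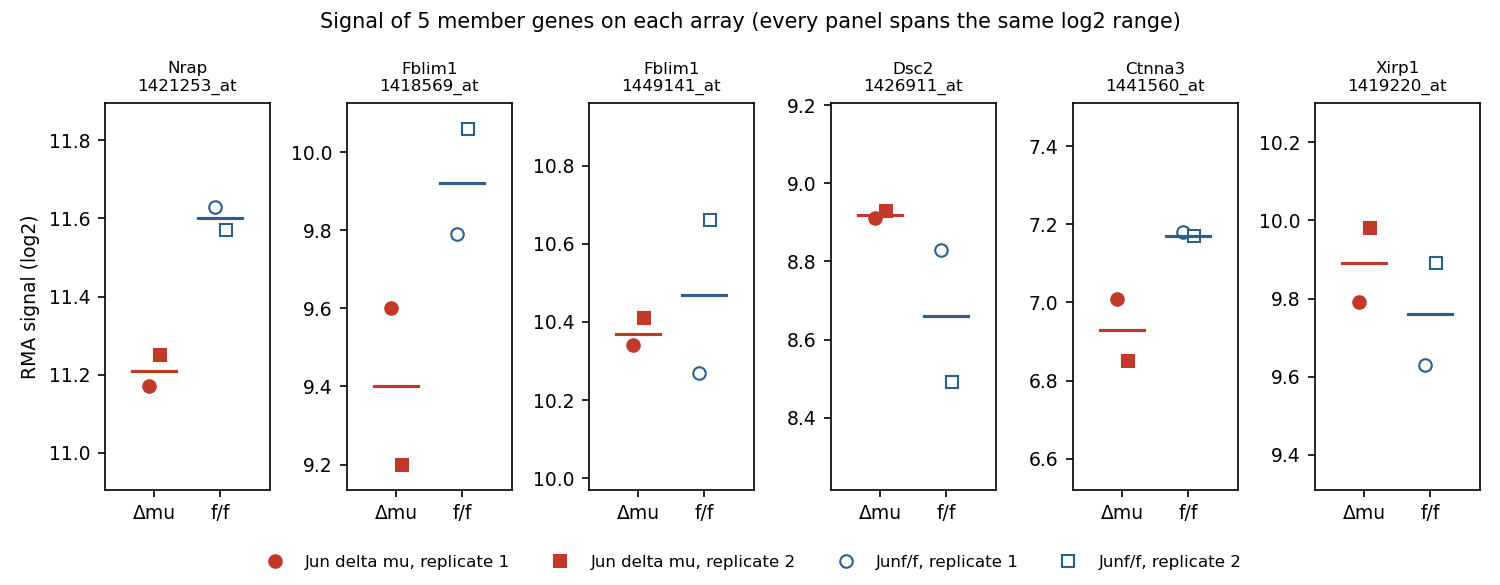
Log2 RMA signal on each array for the single probe sets of Nrap and Xirp1, both of Fblim1 and the brightest of Dsc2 and Ctnna3, with Jun delta mu (filled red) left of Junf/f (open blue) and lines at the group means (n = 2). The genotypes are apart for Nrap, 1418569_at of Fblim1, Dsc2 and Ctnna3 and overlap for 1449141_at of Fblim1 and for Xirp1.

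Among the 8 genes of the desmosome and the intermediate filaments, 0 of 25 probe sets passed the threshold in either direction. By the brightest probe set 5 genes were above 0 and 3 below, between -0.06 and 0.26. The desmosomal cadherins had the highest values. *Dsc2*, desmocollin-2, had a log2 signal of 8.91 and 8.93 in Jun delta mu hearts and 8.83 and 8.49 in Junf/f hearts for 1426911_at. Both Jun delta mu arrays were the higher. The difference was 0.26 (standard error 0.14, 95% interval -0.08 to 0.60, adjusted p = 0.896), and both Junf/f arrays were wide apart. It passed the threshold, at 0.43, without Junf/f replicate 1 and was 0.09 without Junf/f replicate 2. The other probe set of *Dsc2* was at 0.01.

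*Dsg2*, desmoglein-2, the partner cadherin, had 11.56 and 11.55 in Jun delta mu hearts and 11.33 and 11.50 in Junf/f hearts for its brightest probe set. The groups did not overlap, and the difference was 0.14 (95% interval -0.11 to 0.39), with 0.05 without Junf/f replicate 1 and 0.23 without Junf/f replicate 2. Of its 6 probe sets, the 3 brightest were higher on both Jun delta mu arrays, at 0.10 to 0.18, and the others lay between -0.21 and 0.04 with overlap. *Dsp*, desmoplakin, which binds desmin filaments to the plaque, was at 0.08, *Jup*, plakoglobin, at 0.07 and *Pkp4*, a p120-like plakophilin, at -0.06. *Pkp2*, plakophilin-2, was at -0.01, and each of its 4 probe sets was below 0, from -0.29 to -0.01. Of these, 1460511_at and 1420259_at passed the threshold only when Junf/f replicate 2 was left out, at -0.46 and -0.54, and were at 0.20 and -0.05 without Junf/f replicate 1. *Des*, desmin, was at -0.00 with an interval of -0.24 to 0.24, and *Lmna*, lamin A/C of the nuclear envelope, at 0.01. The 5 probe sets of *Lmna* lay between -0.21 and 0.25, with 2 higher and 1 lower on both Jun delta mu arrays, so that they did not agree in direction.

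In the gap and tight junctions, 0 of 15 probe sets of 5 genes passed. *Gja1*, Cx43, the main connexin of ventricular muscle, lies on chromosome 10 from 56377300 to 56390419. Its 6 probe sets differed by 0.12 to 0.21, all above 0. For the brightest, 1437992_x_at, the log2 signal was 13.37 and 13.30 in Jun delta mu hearts and 13.16 and 13.25 in Junf/f hearts. The difference of 0.12 had a 95% interval of -0.11 to 0.35 and was 0.08 to 0.17 with 1 array left out (0.16 without Jun delta mu replicate 2). The largest was that of 1438945_x_at, with 12.55 and 12.44 in Jun delta mu hearts and 12.26 and 12.30 in Junf/f hearts, at 0.21 (95% interval -0.02 to 0.44, unadjusted p = 0.0653, adjusted p = 0.896). In 5 of the 6 both Jun delta mu arrays were the higher. In the sixth, 1415801_at, the arrays ranged more widely, with 10.61 and 10.06 in Jun delta mu hearts against 9.89 and 10.47 in Junf/f hearts. The probe sets of a gene read the same 4 RNA samples and are not separate replicates.

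**Figure D3:**
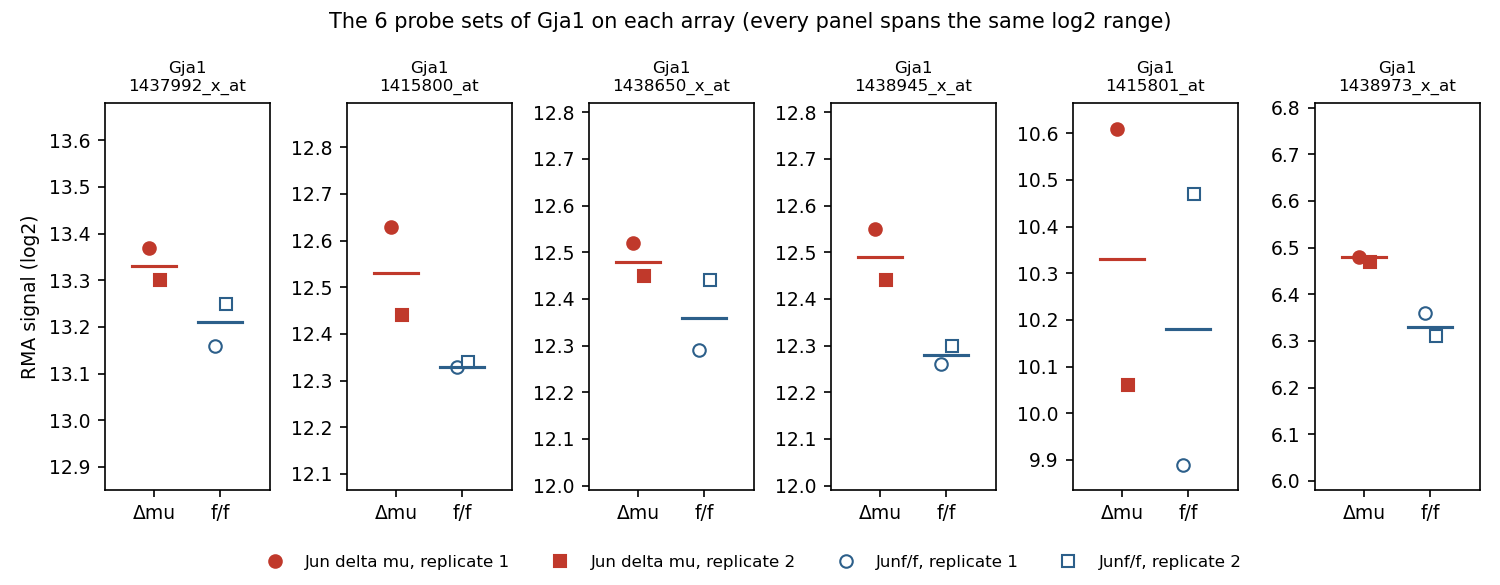
Log2 RMA signal on each array for the 6 probe sets of Gja1, with Jun delta mu (filled red) left of Junf/f (open blue), lines at the group means (n = 2) and the same log2 span in every panel. The Jun delta mu mean is the higher by 0.12 to 0.21 in each, and both hearts of a genotype are widely apart for 1415801_at.

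The other connexins had no such pattern. *Gjc1*, the connexin Cx45, had 8.44 and 8.56 in Jun delta mu hearts and 8.54 and 8.26 in Junf/f hearts. These overlapped, with a difference of 0.10 that was -0.03 without Junf/f replicate 2, and its other probe set was at -0.07. *Gja5*, the connexin Cx40 of atria and conduction system, had a low signal, 4.06 ± 0.08 in Jun delta mu hearts and 4.10 ± 0.03 in Junf/f hearts (SD, n = 2 each). It was lowest of all 4 arrays in Jun delta mu replicate 2, where the atrial markers were highest. No detection calls were available to say whether such a signal is above background.

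*Cxadr*, the coxsackievirus and adenovirus receptor, a cell adhesion protein of the disc and of tight junctions, was lower on both Jun delta mu arrays in 3 of its 5 probe sets, at -0.22 to -0.25. The brightest, 1453282_at, had a log2 signal of 9.30 and 9.16 in Jun delta mu hearts and 9.57 and 9.35 in Junf/f hearts, with a difference of -0.23 (95% interval -0.52 to 0.06). Without 1 array this was -0.34 to -0.12. The remaining 2 were at 0.06 and 0.00. The median signal of its probe sets on each array differed by 0.06, since the probe set of middle brightness, 1449949_a_at, is the one at 0.06. *Tjp1*, ZO-1, the scaffold that binds Cx43 and the catenins, was at -0.08.

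In the core of the focal adhesion, 0 of 20 probe sets of 8 genes passed, and by the brightest probe set all 8 lay between -0.08 and 0.05. *Ilk*, integrin-linked kinase, was at -0.05 with an interval of -0.27 to 0.17. Of the PINCH proteins that bind it, *Lims1* had 10.76 and 10.81 in Jun delta mu hearts and 10.87 and 10.73 in Junf/f hearts, a difference of -0.02. *Lims2*, by its annotated probe set 1424408_at, had 9.85 and 9.92 in Jun delta mu hearts and 9.80 and 9.89 in Junf/f hearts, a difference of 0.04 (95% interval -0.19 to 0.28). Both PINCH genes overlapped between genotypes in these probe sets.

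A further probe set, which the study lists as *Lims2* but the annotation used here leaves without a name, is not counted among the members. It had a log2 signal of 5.04 and 4.84 in Jun delta mu hearts and 5.94 and 5.22 in Junf/f hearts. Both Jun delta mu arrays were the lower, with a difference of -0.64 (95% interval -1.25 to -0.03, unadjusted p = 0.0432, adjusted p = 0.896, limma) that is past the threshold. Its signal is dim, and the Junf/f arrays were wide apart (SD 0.51, against 0.14 in Jun delta mu hearts). The higher value was on Junf/f replicate 1, the array that stood apart. Its difference with 1 array left out and its result by the methods' t-test are not given here. The study picked this probe set from these arrays, and the annotated probe set did not share its difference.

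The parvins, which link integrin-linked kinase to actin, did not differ beyond the spread. *Parva* had 8.23 and 8.27 in Jun delta mu hearts and 8.31 and 8.08 in Junf/f hearts, a difference of 0.05. *Parvb* had 8.90 and 8.56 in Jun delta mu hearts and 8.48 and 8.91 in Junf/f hearts, a difference of 0.03 with the widest interval of the 36 genes, -0.43 to 0.50. Talins bind the tails of integrins. *Tln1* had 9.40 and 9.45 in Jun delta mu hearts and 9.36 and 9.50 in Junf/f hearts for its brightest probe set, a difference of -0.01. A second, 1436042_at, had 8.07 and 8.19 in Jun delta mu hearts and 7.74 and 7.94 in Junf/f hearts, a difference of 0.29 (95% interval 0.01 to 0.57, unadjusted p = 0.0455, adjusted p = 0.896). It was short of 1.3-fold over all hearts and passed, at 0.39, without Junf/f replicate 2, whereas it was 0.19 without Junf/f replicate 1. *Tln2*, the talin more typical of striated muscle, had 9.03 and 8.99 in Jun delta mu hearts and 9.12 and 9.05 in Junf/f hearts, a difference of -0.07. *Fermt2*, kindlin-2, which activates integrins together with talin, was at -0.08, with all 3 of its probe sets between -0.09 and -0.07.

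Around this core, 1 of 21 probe sets of 7 genes was lower past the threshold and none was higher, and no gene passed by its brightest probe set. *Fblim1* lies on chromosome 4 from 141576062 to 141606052. Its probe set 1418569_at had a log2 signal of 9.60 and 9.20 in Jun delta mu hearts and 9.79 and 10.06 in Junf/f hearts. The genotypes did not overlap, but hearts of 1 genotype were themselves well apart. The difference was -0.52 (standard error 0.17, 95% interval -0.95 to -0.09, limma, unadjusted p = 0.0252, adjusted p = 0.896), and it no longer passed without Jun delta mu replicate 2, at -0.32, or without Junf/f replicate 2, at -0.39. The call was also lost with the methods' t-test and with replicate number as a block in limma (unadjusted p = 0.167 and 0.0664). The brighter probe set, 1449141_at, had 10.34 and 10.41 in Jun delta mu hearts and 10.27 and 10.66 in Junf/f hearts. These overlapped, at -0.09 (95% interval -0.46 to 0.28), and the difference was 0.11 without Junf/f replicate 2. The 2 probe sets of *Fblim1* therefore gave different calls, and where in the transcript each of them lies was not examined. The 6 smooth muscle markers had a median difference of -0.38, with 1 past the threshold, and the atrial markers were high in Jun delta mu replicate 2, and the part of either in the difference of *Fblim1* was not tested.

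The other adaptors were nearer to 0. *Enah*, which encodes Mena, a promoter of actin filament growth, had 11.29 and 11.37 in Jun delta mu hearts and 11.41 and 11.48 in Junf/f hearts for 1424800_at. Both Jun delta mu arrays were the lower, with a difference of -0.12 (95% interval -0.34 to 0.11), while its other 5 probe sets overlapped and lay between -0.08 and 0.04. *Vasp*, a relative of Mena, was at 0.08. *Sorbs2*, an adaptor of Z-disc and adhesion sites, had 12.37 and 12.25 in Jun delta mu hearts and 12.08 and 12.35 in Junf/f hearts. The groups overlapped, and the difference of 0.10 was -0.04 without Junf/f replicate 1. A dimmer probe set of *Sorbs2*, 1441624_at, was at 0.09 and passed, at 0.46, without Junf/f replicate 2, but was at -0.27 without Junf/f replicate 1. *Tns1*, tensin-1, which links integrin to actin, was at 0.09 and had all 3 probe sets between 0.08 and 0.12. *Pxn*, paxillin, was at -0.00 and *Zyx*, zyxin, at -0.02.

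The agreement among probe sets of a gene was limited. Of the 17 genes with 3 or more probe sets, 5 had all of them on 1 side of 0, *Ctnnb1*, *Pkp2* and *Fermt2* below it and *Gja1* and *Tns1* above it, and 18 of the 28 genes with 2 or more probe sets had both signs. Over the 99 probe sets, 19 had both Jun delta mu arrays below both Junf/f arrays (19.2%, where 16.7% of all probe sets had) and 15 had both above (15.2%, where 17.3% of all had), while 65 overlapped. By structure, 7 of the 25 desmosomal and filament probe sets lay apart with Jun delta mu the higher and 2 with it the lower. In the gap and tight junctions these counts were 5 and 4 of 15, the 5 all of *Gja1*, and in the core of the focal adhesion 1 and 5 of 20. They were 1 and 5 of 18 in the adherens junction and 1 and 3 of 21 among the adaptors. Each of these counts is small, and none was tested against the shares of all probe sets.

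**Figure D4:**
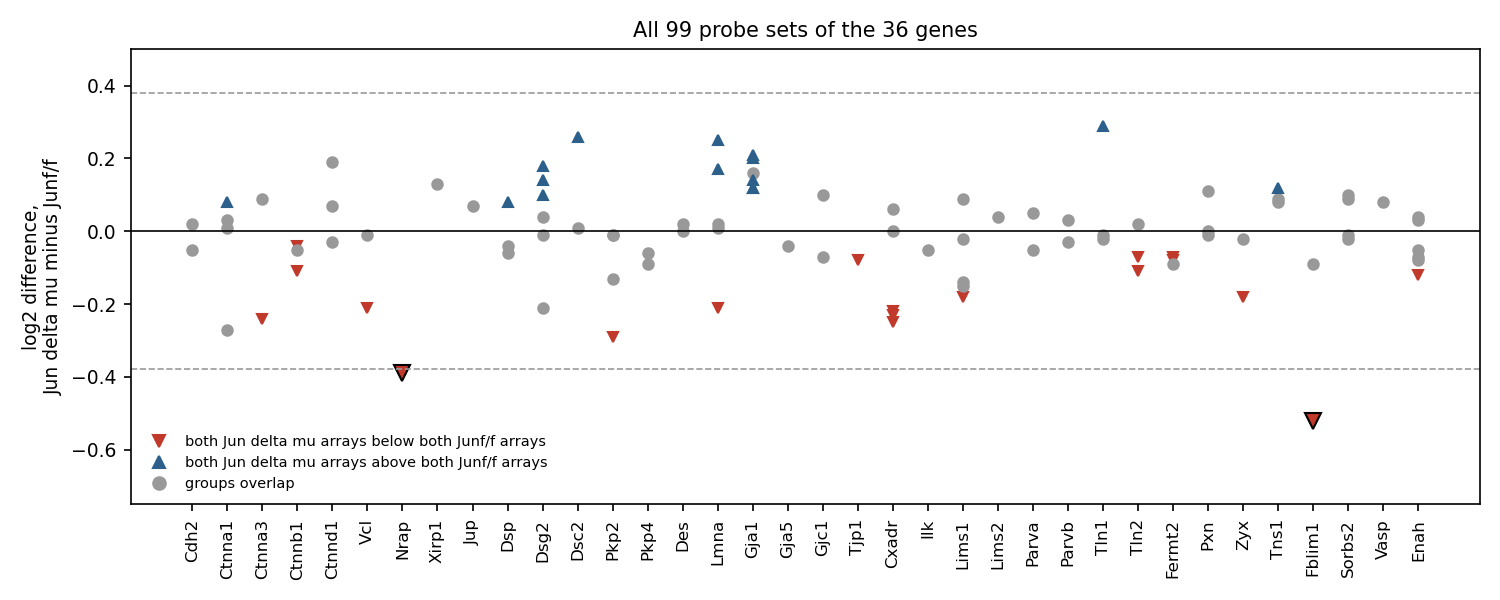
Difference in log2 signal, Jun delta mu minus Junf/f, for each of the 99 probe sets, by gene. Red triangles have both Jun delta mu arrays below both Junf/f arrays (19), blue triangles both above (15), grey circles overlap (65), dashed lines mark 1.3-fold and the 2 symbols with a black edge, of Nrap and Fblim1, passed the threshold.

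Other genes of the same structures were counted from a list of 56, of which 47 were measured. By the brightest probe set 1 of the 47 was lower past the threshold, where 0.786% of all genes were, and 0 were higher, where 0.665% were. The other 46 did not pass, and the median was -0.01 with a range of -0.53 to 0.22. Of their 113 probe sets, 27 had both Jun delta mu arrays below both Junf/f arrays and 18 both above. Over all probe sets these shares were 16.7% and 17.3%. The gene past the threshold was *Pdlim1*, a PDZ and LIM domain protein that binds α-actinin, with 9.77 and 9.77 in Jun delta mu hearts and 10.22 and 10.37 in Junf/f hearts. Its difference was -0.53 (standard error 0.10, 95% interval -0.77 to -0.29, limma, adjusted p = 0.896), larger than the gap between hearts of either genotype. By other probe sets, *Itga6*, a laminin-binding integrin chain, was lower past the threshold at -0.40 and *Pdlim5*, another PDZ and LIM domain protein, was higher at 0.38, although their brightest probe sets were at -0.24 and -0.06 and did not pass. *Itgb1*, the integrin chain that pairs with most others in heart muscle, was at -0.04.

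**Figure D5:**
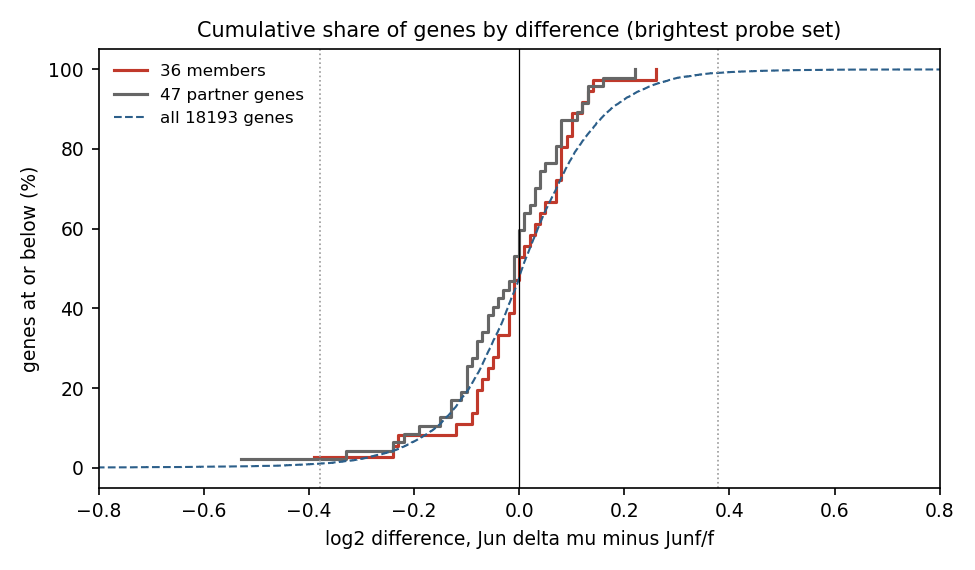
Share of genes (%) at or below each difference in log2 signal, Jun delta mu minus Junf/f, by the brightest probe set, for the 36 members (red), the 47 measured genes of the same structures (grey) and all 18193 genes (dashed blue), with dotted lines at 1.3-fold. The medians are -0.00, -0.01 and 0.01, and 1 member and 1 of the other genes lie beyond 1.3-fold on the lower side.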

How the data were processed

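Total RNA was extracted with TRIzol and hybridised to Affymetrix Mouse Genome arrays, 1 per heart, and the methods name the AGCC software for the raw data. The values deposited by the authors are log2 signals per probe set for 45101 probe sets, and the submitters' processing notes name RMA and oligo without versions. They were background-corrected and normalized between arrays before deposit and carry no detection calls, and RMA can understate differences of dim probe sets. With 2 arrays per genotype, 2 residual degrees of freedom remain, which limits the precision of every value.

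After removal of 64 AFFX control probe sets, 45037 remained. Genotype was the single term of a linear model per probe set, fitted in R 4.3.3 by lmFit and eBayes of limma 3.58.1 and tested two-sided, and p-values were adjusted after Benjamini-Hochberg over the whole set. Differences are mean log2 signals of Jun delta mu minus Junf/f hearts. The threshold (1.3-fold, unadjusted p under 0.05) follows the methods, which use Student's test. The methods also admit selected genes through quantitative RT-PCR, a route not followed here. In the annotation, 34945 probe sets have 1 gene symbol, 932 have several and 9160 have none. Of several probe sets of a gene, the brightest over all 4 arrays stands for it. Probe sets ending in _s_at or _x_at can read related transcripts. Gene positions and promoter sequences came from RefSeq (GRCm38). Values on each array are given for members past the threshold, those in the list of the study, the 10 largest differences and the pairs of paralogs, and other probe sets were named after their values were seen. The members and lists were chosen with earlier results of these data known. Alternatives were the methods' t-test, array weights, a trended and robust prior, replicate number as a block, a fit without the dimmest 40% of probe sets, 3 further normalizations, specific probe sets only, the median of each gene's probe sets and leaving out each array, where the lone array is assumed to vary like the other genotype. The procedure was tested on simulated data. Figures were drawn with matplotlib 3.10.9.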

Additional observations from a re-analysis of the deposited data

How the results depend on the processing

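The count of member probe sets lower past the threshold, 2 over all hearts, was 1 with the methods' t-test and 1 with replicate number as a block, where *Nrap* passed and 1418569_at of *Fblim1* did not (unadjusted p = 0.167 and 0.0664). Same-numbered hearts did not deviate together over all probe sets (correlation 0.0281). The sample labels name no pairing, and with 2 arrays per genotype this correlation cannot decide whether the number pairs hearts. Leaving out 1 array gave 1 to 4 lower and 0 to 2 higher probe sets, 0 to 1 lower and 0 to 1 higher genes, and a median difference of -0.033 to 0.035. The 4 and the 2 came without Junf/f replicate 2, when 3452 of all probe sets passed in place of 688. By the median of each gene's probe sets, *Cxadr* was at 0.06 and *Tln1* at 0.29, with signs opposite to their brightest probe sets. Signs also differed for *Ctnna1*, *Dsp* and *Cdh2*, at -0.13, -0.04 and -0.02 by this median against 0.08, 0.08 and 0.02. *Pxn* was at 0.11 against -0.00. Differences with 1 array left out were followed for only part of the member probe sets. Among these the sign turned for 1449141_at of *Fblim1* (-0.29 to 0.11), *Gjc1* (-0.03 to 0.24), *Lims1* (-0.09 to 0.05) and *Parva* (-0.06 to 0.17). It also turned for *Parvb* (-0.18 to 0.25), *Sorbs2* (-0.04 to 0.23) and *Tln1* (-0.08 to 0.06). Of dimmer probe sets it turned for 1460511_at of *Pkp2* (-0.46 to 0.20) and 1441624_at of *Sorbs2* (-0.27 to 0.46). Over all hearts none of these probe sets passed. The causes were not tested. The 3 further normalizations, the trended prior, array weights, the signal filter and specific probe sets left both probe sets past the threshold. With 2 hearts per genotype a shift smaller than the reach of a gene's own interval could not be told from 0. No detection calls bound the dim probe sets. The median over probe sets gave 2 genes of the whole array at an adjusted p under 0.05, and 0 under every other setting.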
